A study of Mus musculus with 12 samples.

Results

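The genes described here are 32 components of the endoplasmic reticulum (ER) folding machinery and of the unfolded protein response. They were chosen by name, with earlier results of these data known. Each was read from probe sets that carry a single gene symbol in the platform annotation, taking the brightest one per gene by its mean over all arrays. All 32 were found among 19937 genes measured in this way. They fall into 12 chaperones and co-chaperones, 5 disulfide isomerases, 7 genes of ER-associated degradation, 4 genes of stress sensing and signalling, and 4 genes of translocation, glycosylation and export.

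RNA was profiled on Affymetrix Mouse Gene 1.0 ST arrays in 4 stable lines made from 4T1 cells, with 3 arrays per line. 4T1 is a transplantable carcinoma line of the BALB/cfC3H mouse mammary gland. The lines are ΔSAP, mutB1, FL and control. The first 3 are named for constructs of Mkl1 (gene Mrtfa), a coactivator of serum response factor: ΔSAP is read as a construct without the SAP domain, mutB1 as one with a mutated B1 region, and FL as full length. All 4 lines were kept in 0.03% serum for 48 h before RNA extraction. The labels name 1 line per construct, so construct and line cannot be told apart, and the p-values measure the spread between arrays of a line. The labels used here do not say which promoter drives the constructs, what the control line carries or whether a line is 1 clone.

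Proteins that enter the secretory pathway fold in the ER with the help of Hspa5 (BiP) and its co-chaperones, of lectin chaperones that hold glycoproteins, and of isomerases that form and shuffle disulfide bonds. Chains that fail to fold are drawn back across the membrane and degraded. When unfolded chains accumulate, the membrane sensors Ern1 (IRE1), Eif2ak3 (PERK) and Atf6 set off the unfolded protein response, whose transcription factors raise chaperone, isomerase and degradation genes through promoter elements such as the ER stress response element (ERSE). Carcinoma cells are known to rely on this response under secretory load, nutrient shortage and low oxygen.

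The member promoters were searched for these elements because the genes below moved together. RefSeq's table of promoters (build GRCm38.p6, from 250 bases before the annotated start to 50 bases from it onward) held entries for 25 of the 32 members, the others being Hyou1, Sil1, Hspa13, Manf, Derl1, Atf6 and Ostc. The ERSE, searched as CCAAT and CCACG with 9 bases between them on both strands, was found in 9 of these 25 genes and in 0.119% of the 32851 promoters in the table. ERSE-II, ATTGG and CCACG with 1 base between them, was found in 2 other members and in 0.0365% of all promoters. Both elements contain CCACG beside a CCAAT box (read as ATTGG in ERSE-II), and either part alone was found in 21 of the 25 members, against 37.4% (CCAAT) and 32.8% (CCACG) of all promoters. The sequences below show the shared layout, with the defining letters of ERSE and ERSE-II in capitals. They are written 5′ to 3′ on the strand of the gene, so an element on the other strand reads CGTGG, then ATTGG. Calr and Creld2 carry it in that orientation.
Hspa5 (chr2:34772016-34772052, plus strand): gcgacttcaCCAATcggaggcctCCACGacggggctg
Calr (chr8:84847066-84847102, minus strand): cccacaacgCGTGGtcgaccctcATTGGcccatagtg
Canx (chr11:50325791-50325827, minus strand): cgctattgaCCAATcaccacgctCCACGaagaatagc
Creld2 (chr15:88819511-88819547, plus strand): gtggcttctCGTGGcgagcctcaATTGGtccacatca
Syvn1 (chr19:6046523-6046559, plus strand): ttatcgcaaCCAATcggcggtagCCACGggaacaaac
Dnajb11 (chr16:22857843-22857871, plus strand): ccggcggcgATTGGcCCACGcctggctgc
Herpud1 (chr8:94386368-94386396, plus strand): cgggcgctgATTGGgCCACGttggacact

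The other ERSE matches were in Hsp90b1 (2 matches), Dnajc3, Pdia6 and Derl3. Counted from the annotated start as 0, the matches before the start began between base -212 in Hsp90b1 and base -44 in Syvn1. The Dnajb11 match lay at bases 7 to 17, after the start. A UPRE core, TGACGTGG, was found in Sec24d alone of the 25 members and in 0.676% of all promoters. A core of the amino acid response element, TGATGCAA, was found in Herpud1 alone and in 0.895% of all promoters. A CArG box, the element bound by serum response factor, was likewise found in Herpud1 alone and in 1.63% of all promoters, at bases 36 to 45 after the start (capitals).
Herpud1 (chr8:94386456-94386478, plus strand): acggggcgcCCATAAAAGGtacc
A match describes letters in this window and is not evidence of binding. The members were chosen as genes of a response that acts through such elements. Their share of matches therefore says nothing about the lines.

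**Figure D1:**
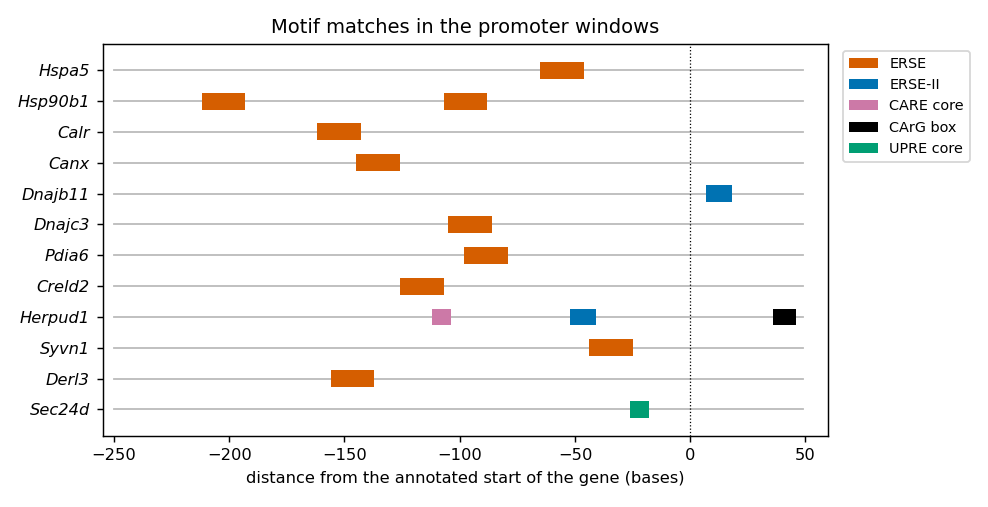
Positions of motif matches in the promoter windows of the 12 members that hold any of the 5 motifs drawn. The x axis is the distance from the annotated start of the gene in bases (dotted line at 0), grey lines are the windows searched and colours give the motif. ERSE matches lie before the start, from base -212 to base -26, and Herpud1 holds 3 different motifs.

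Levels are the authors' log2 RMA values. Differences are in log2 units, the line named first minus the other, and are given ± their standard error (SE). A gene passed, or is called higher or lower, at an adjusted p of 0.01 or less in limma, adjusted over the 34760 probe sets and whatever its fold. Over probe sets, r was 0.995 to 0.997 between arrays of a line and 0.988 to 0.995 between lines. Mrtfa, the gene of the constructs, exceeded the control line by 2.64 in ΔSAP, 2.01 in mutB1 and 2.81 in FL (limma adjusted p = 7.5e-10, 3.12e-09 and 3.67e-10), and was lower in mutB1 than in FL (-0.79 ± 0.06, adjusted p = 2.79e-06). The epithelial keratins Krt8 and Krt18 lay between 12.5 and 13.2 on every array. Other epithelial markers were lower or varied more. Cldn7 had line means of 5.67 to 5.94, and Cdh1 averaged 8.08 in mutB1 and 10.30 in FL. Epcam averaged 6.41 in mutB1 and 8.26 in FL. The leukocyte gene Ptprc stayed at 4.43 to 4.73 and the endothelial gene Pecam1 at 5.08 to 5.60, below the lowest array median of 6.35. Not every marker of these 2 kinds was that low. Line means were 8.53 to 9.58 for the leukocyte marker Cd68 and 11.3 to 11.8 for the endothelial marker Eng. The leukocyte marker S100a8 averaged 7.59 in mutB1. Epithelial markers differed between the lines: of 12, 10 were higher in ΔSAP than in FL, while 7 were lower and 2 higher in mutB1 than in FL. Their mean log2 value per array was 10.44 to 10.47 in ΔSAP, 8.41 to 8.43 in mutB1, 9.58 to 9.63 in FL and 9.52 to 9.57 in control. Of 10 fibroblast markers, 1 was higher and 1 lower in ΔSAP than in FL, and 3 were higher in mutB1. The mean of the 10 per array was 7.11 to 7.16 in mutB1, against 6.36 to 6.48 in FL. Pdgfrb averaged 10.29 in mutB1 and 6.33 in FL, and Pdgfra 10.87 and 9.38. Of 9 leukocyte and 6 endothelial markers, 1 of each was lower in ΔSAP, and in mutB1 1 leukocyte marker was lower and 1 of each list higher. The part of the Mrtfa level and of these markers in the results was not tested.

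Across the 4 lines, the members were highest in FL. FL had the highest mean for 25 of the 32 genes, ΔSAP for 4, mutB1 for 3 and control for 0. The lowest mean was in ΔSAP for 4, in mutB1 for 8, in FL for 1 and in control for 19. Shares of all probe sets that were highest or lowest in each line were not counted. In limma's F test over the lines, 25 of the 32 passed, against 27.7% of all probe sets and 60.7% of the 9490 probe sets with a mean of at least 9, a bound set with the values known, since most members are that bright. Derl3 was the only member whose mean over all arrays, 6.24, lay under every array median, so its signal may be background.

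Against FL, ΔSAP had 18 of 32 members lower and 0 higher, where 5.73% of all probe sets were lower and 5.7% higher. At an unadjusted p under 0.05 in limma, 1 member was higher in ΔSAP, Eif2ak3, and 24 lower. No share of all probe sets was counted at that unadjusted cut. Against FL, mutB1 had 22 of 32 lower and 2 higher, where 8.82% of all probe sets were lower and 9% higher. Among probe sets with a mean of at least 9, 13.6% were lower and 13.2% higher in ΔSAP, and 18.1% lower and 20.3% higher in mutB1. The median difference of the members was -0.26 for ΔSAP and -0.31 for mutB1, beside medians of -0.027 and 0.0039 over all probe sets. Both comparisons use the same FL arrays, and 16 members were lower in both. Because the members were chosen with earlier results known, the shares beside their counts give scale throughout and are no test.

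FL in turn exceeded control at 20 of 32 members and was lower at 1, against 9.61% and 10.4% of all probe sets and 21% and 23.6% of those with a mean of at least 9. The median difference of the members was 0.35, with -0.0098 over all probe sets. ΔSAP exceeded control at 14 and was lower at 5, where the shares over all probe sets were 6.96% and 7.83%. For mutB1 the counts against control were 6 higher and 4 lower, with shares of 5.83% and 6.89%. Shares among probe sets with a mean of at least 9 are not given for ΔSAP or mutB1 against control. For FL against control they were higher than those over all probe sets. The median difference from control was 0.13 in ΔSAP and 0.090 in mutB1. The control arrays are shared by these comparisons. In ΔSAP against control, the calls of Hspa5 (0.21) and Pdia3 (0.26) were lost in a fit to the 2 lines compared (adjusted p = 0.0119 and 0.0249), the second also after centring each array on its median (adjusted p = 0.013). The call of Hyou1 in mutB1 against control (0.31) was lost in a fit to the 2 lines compared (0.31, adjusted p = 0.0124). The call of Edem1 in ΔSAP against control (0.15) was lost without array ΔSAP 1, 2 or 3, mutB1 1, 2 or 3, FL 1, 2 or 3 or control 1, 2 or 3 (adjusted p of 0.011 to 0.0355), and its adjusted p ran from 0.000639 to 0.0598 over all alternatives. That of Dnajc3 (0.21) was lost without array ΔSAP 2 or 3, mutB1 3, FL 1 or 2 or control 1, 2 or 3 (adjusted p of 0.011 to 0.0311), and its adjusted p ran from 0.00186 to 0.0384 over all alternatives. Other calls lost in ΔSAP against control were Calr without ΔSAP 2 or 3 or control 1 or 3 (adjusted p of 0.0144 to 0.0178), Sil1 without ΔSAP 1 or 3 or control 1 or 2 (adjusted p of 0.0126 to 0.0177) and Creld2 without ΔSAP 1, 2 or 3 or control 2 or 3 (adjusted p of 0.0125 to 0.0232). Those lost in mutB1 against control were Hsp90b1 without control 3 (adjusted p = 0.0107) and Pdia4 without ΔSAP 3, mutB1 1, 2 or 3, FL 1, 2 or 3 or control 1, 2 or 3 (adjusted p of 0.0102 to 0.0272), and those in FL against control Pdia6 without FL 1 or control 3 (adjusted p of 0.0121 to 0.0131) and Derl1 without FL 1 or 3 or control 1, 2 or 3 (adjusted p of 0.0105 to 0.0217).

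The changes were small. With the study's own filters, which add a 2-fold change and a mean of 4 to the adjusted p, the members called in mutB1 against FL came down to Sdf2l1, which was lower, where 0.972% of all probe sets were lower and 0.627% higher. In FL against control Sdf2l1 and Dnajb11 were higher, where 1.21% were higher and 0.621% lower. In ΔSAP against FL 0 members passed these filters, beside 0.216% of probe sets lower and 0.288% higher.

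**Figure D2:**
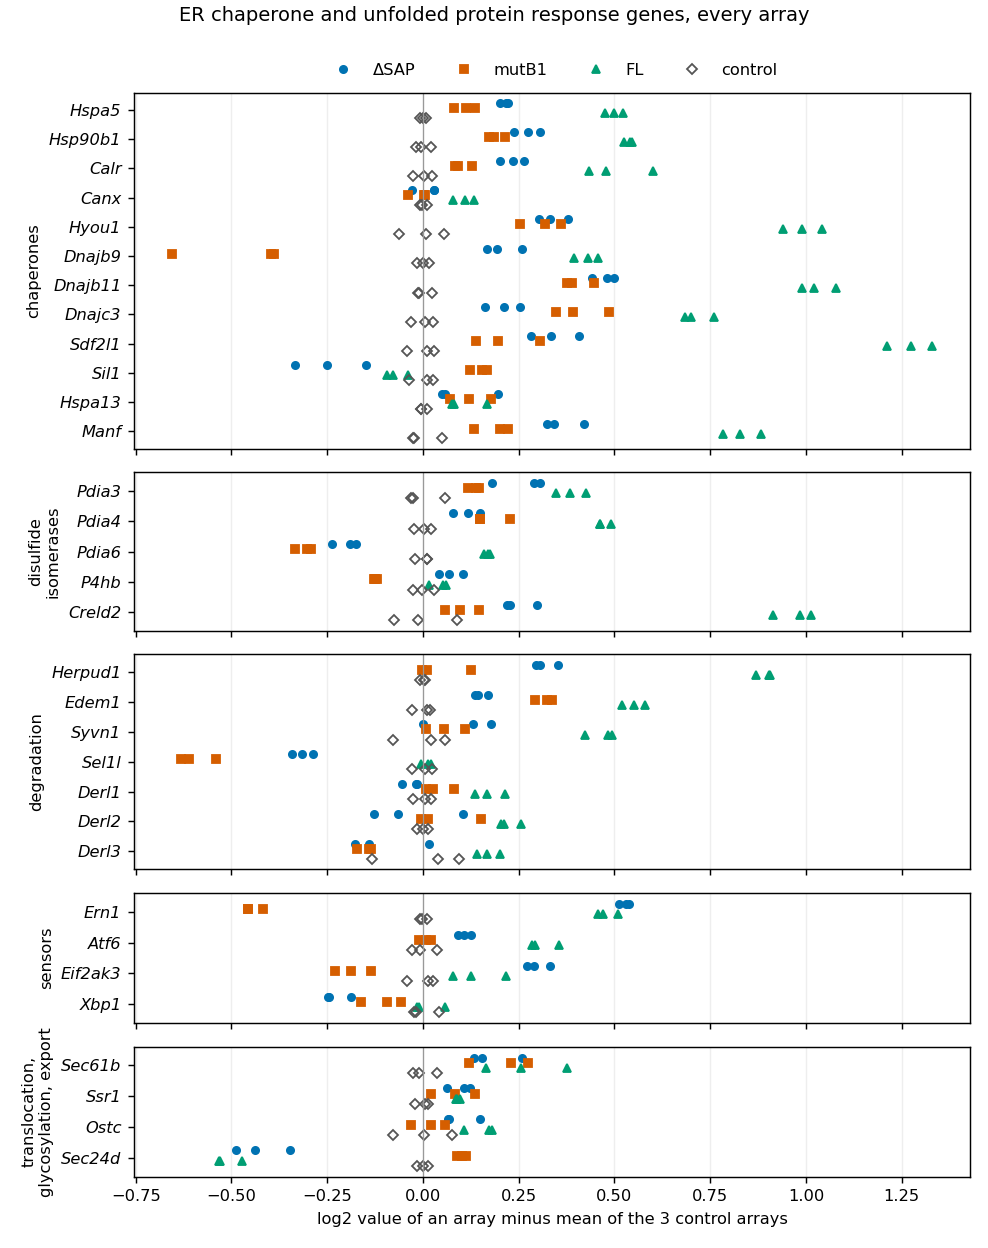
Log2 value of every array minus the mean of the 3 control arrays (x axis) for the 32 members, grouped by role, with ΔSAP as circles, mutB1 as squares, FL as triangles and control as open diamonds. FL lies farthest to the right for most chaperones, while Ern1, Sel1l and Sec24d show other orders of the lines.

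Most chaperones were highest in FL. Of 12, 8 were lower in ΔSAP than in FL and 0 higher, and 9 were lower and 1 higher in mutB1. In FL 9 exceeded control and 0 were lower. Their median difference was -0.28 for ΔSAP against FL and -0.40 for mutB1 against FL.

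Hspa5 (BiP), the ER member of the heat shock protein 70 family and the main binder of unfolded chains, had log2 values of 12.97, 12.99 and 12.98 in ΔSAP, 12.85, 12.90 and 12.88 in mutB1, 13.26, 13.29 and 13.24 in FL, and 12.76, 12.77 and 12.76 in control. The lines did not overlap, and stood in the order control, mutB1, ΔSAP, FL. Hspa5 was lower than in FL in ΔSAP (-0.29 ± 0.03, adjusted p = 0.000138) and in mutB1 (-0.39 ± 0.03, adjusted p = 7.16e-06), and FL exceeded control by 0.50 ± 0.03 (adjusted p = 8.86e-07). The step between ΔSAP and mutB1, 0.10, did not pass (adjusted p = 0.0354). Hsp90b1 (GRP94), the ER heat shock protein 90, differed from FL by -0.27 ± 0.03 (adjusted p = 0.00029) in ΔSAP and -0.35 ± 0.03 (adjusted p = 2.27e-05) in mutB1. Calr (calreticulin), the soluble lectin chaperone, differed from FL by -0.27 ± 0.05 (adjusted p = 0.00202) in ΔSAP and -0.40 ± 0.05 (adjusted p = 8.43e-05) in mutB1. In ΔSAP against FL, the call of Calr was lost after centring each array on its median (-0.24, adjusted p = 0.0143) and in a fit to the 2 lines compared (-0.27, adjusted p = 0.0302), and that of Hsp90b1 in a fit to the 2 lines compared (-0.27, adjusted p = 0.0111). Canx (calnexin), its membrane-bound relative, passed in none of the 6 comparisons, with means of 12.77 ± 0.03 in ΔSAP, 12.76 ± 0.02 in mutB1, 12.87 ± 0.03 in FL and 12.76 ± 0.01 in control (SD, n = 3). Its adjusted p was lowest, 0.0258, in mutB1 against FL.

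Sdf2l1, which binds Dnajb11 and assists Hspa5, had values of 11.06, 11.12 and 11.19 in ΔSAP, 11.09, 10.98 and 10.92 in mutB1, 12.06, 12.11 and 11.99 in FL, and 10.81, 10.79 and 10.74 in control. All FL arrays lay above those of every other line. It was 1.91-fold lower in ΔSAP than in FL (-0.93 ± 0.05, adjusted p = 3.02e-06) and 2.08-fold lower in mutB1 (-1.06 ± 0.05, adjusted p = 3.02e-07). FL exceeded control 2.42-fold, by 1.27 ± 0.05 (adjusted p = 5.85e-08), the largest difference among the members in that comparison.

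Dnajb11, a J-domain co-chaperone that hands clients to Hspa5, had values of 9.47, 9.53 and 9.51 in ΔSAP, 9.41, 9.48 and 9.42 in mutB1, 10.05, 10.02 and 10.11 in FL, and 9.02, 9.02 and 9.05 in control. The FL arrays were again highest, the ΔSAP and mutB1 arrays overlapped and the control arrays were lowest. The differences from FL were -0.56 ± 0.04 (adjusted p = 6.75e-06) in ΔSAP and -0.63 ± 0.04 (adjusted p = 8.84e-07) in mutB1. Hyou1, a large chaperone that exchanges the nucleotide of Hspa5, had values of 10.68, 10.71 and 10.76 in ΔSAP, 10.74, 10.64 and 10.70 in mutB1, 11.32, 11.43 and 11.37 in FL, and 10.39, 10.32 and 10.44 in control. Here too FL stood apart, and ΔSAP and mutB1 overlapped above control. Hyou1 differed from FL by -0.65 ± 0.05 (adjusted p = 9.77e-06) in ΔSAP and -0.68 ± 0.05 (adjusted p = 2.42e-06) in mutB1.

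Manf, a small secreted and ER-retained protein induced by ER stress, stood at 10.09 ± 0.05 in ΔSAP, 9.92 ± 0.05 in mutB1, 10.56 ± 0.05 in FL and 9.73 ± 0.04 in control (SD, n = 3). It was lower than in FL in ΔSAP (-0.47 ± 0.04, adjusted p = 6.04e-05), and in mutB1 (-0.65 ± 0.04, adjusted p = 2.54e-06). Dnajc3 (p58IPK), a co-chaperone that also inhibits Eif2ak3, had means of 10.32 ± 0.05 in ΔSAP, 10.52 ± 0.07 in mutB1, 10.82 ± 0.04 in FL and 10.11 ± 0.03 in control. It fell against FL by 0.51 ± 0.05 (adjusted p = 3.99e-05) in ΔSAP and by 0.31 ± 0.05 (adjusted p = 0.000527) in mutB1. Unlike Hspa5, its mean was lower in ΔSAP than in mutB1 (-0.20 ± 0.05, adjusted p = 0.00903). That last call was lost without array ΔSAP 1, 2 or 3, mutB1 2 or 3, FL 1, 2 or 3 or control 1, 2 or 3 (adjusted p of 0.011 to 0.0328), and its adjusted p ran from 0.00253 to 0.0558 over all alternatives.

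Dnajb9, a co-chaperone whose gene is a target of the Ern1 arm and which also restrains Ern1, followed another order. Its values were 10.20, 10.23 and 10.29 in ΔSAP, 9.64, 9.64 and 9.38 in mutB1, 10.43, 10.46 and 10.49 in FL, and 10.05, 10.02 and 10.03 in control. The mutB1 arrays were the lowest and did not overlap with those of another line. Dnajb9 was 1.88-fold lower in mutB1 than in FL (-0.91 ± 0.07, adjusted p = 3.46e-06) and lower than in control (-0.48 ± 0.07, adjusted p = 0.000436). The call against control was lost in a fit to the 2 lines compared (-0.48, adjusted p = 0.0129). In ΔSAP Dnajb9 did not pass against FL (-0.22 ± 0.07, adjusted p = 0.0423), and ΔSAP exceeded mutB1 by 0.69 ± 0.07 (adjusted p = 3.15e-05).

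Sil1 and Hspa13 did not share the FL maximum. Sil1, another nucleotide exchange factor of Hspa5, had means of 9.24 ± 0.09 in ΔSAP, 9.63 ± 0.02 in mutB1, 9.41 ± 0.03 in FL and 9.48 ± 0.03 in control (SD, n = 3). It was lower in ΔSAP than in mutB1 (-0.39 ± 0.05, adjusted p = 0.000163), and higher in mutB1 than in FL, by 0.22 ± 0.05 (adjusted p = 0.00605). This second call was lost without array mutB1 1, 2 or 3, FL 1, 2 or 3 or control 2 (adjusted p of 0.0102 to 0.0263), and its adjusted p ran from 0.00207 to 0.0263 over all alternatives. Hspa13, a chaperone-like ATPase of microsomes, passed in none of the comparisons and averaged 11.08 ± 0.08 in ΔSAP, 11.11 ± 0.05 in mutB1, 11.09 ± 0.05 in FL and 10.98 ± 0.01 in control.

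All 5 disulfide isomerases were lower in mutB1 than in FL, though the calls of Pdia3 and P4hb were lost under some alternatives. Of the 5, 3 were also lower in ΔSAP, and 4 were higher in FL than in control. Creld2, an ER stress-inducible protein with isomerase activity, led them, with values of 10.71, 10.70 and 10.78 in ΔSAP, 10.54, 10.63 and 10.58 in mutB1, 11.46, 11.49 and 11.39 in FL, and 10.57, 10.40 and 10.47 in control. The FL arrays lay above all others and the mutB1 and control arrays overlapped. Creld2 was 1.65-fold lower in ΔSAP than in FL (-0.72 ± 0.05, adjusted p = 8.42e-06) and 1.83-fold lower in mutB1 (-0.87 ± 0.05, adjusted p = 7.16e-07).

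Pdia4, an isomerase of multiple thioredoxin domains, differed from FL (-0.36 ± 0.04, adjusted p = 9.12e-05) in ΔSAP and -0.30 ± 0.04 (adjusted p = 0.000147) in mutB1. A dimmer second probe set of Pdia4, with line means of 4.97 to 5.60, gave -0.44 and -0.40 (adjusted p = 0.0233 and 0.0278). Pdia6, which also tempers Ern1 signalling, had values of 11.24, 11.30 and 11.29 in ΔSAP, 11.14, 11.18 and 11.19 in mutB1, 11.65, 11.64 and 11.65 in FL, and 11.49, 11.49 and 11.46 in control. The lines did not overlap, and both mutant lines lay below control, ΔSAP (-0.20 ± 0.03, adjusted p = 0.0011) and mutB1 (-0.31 ± 0.03, adjusted p = 6.57e-05). The call in ΔSAP was lost in a fit to the 2 lines compared (-0.20, adjusted p = 0.0204). That order differs from Hspa5, for which ΔSAP lay above control.

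Pdia3 (ERp57), the partner of calnexin and calreticulin, was lower than FL in mutB1 (-0.25 ± 0.04, adjusted p = 0.00171), and did not pass in ΔSAP (-0.13 ± 0.04, adjusted p = 0.0814). The call in mutB1 was lost after centring each array on its median (-0.20, adjusted p = 0.0253). P4hb, the classical protein disulfide isomerase and a subunit of prolyl hydroxylase, had values of 12.11, 12.17 and 12.13 in ΔSAP, 11.94, 11.94 and 11.94 in mutB1, 12.12, 12.08 and 12.12 in FL, and 12.06, 12.04 and 12.10 in control. The mutB1 arrays were the lowest and the FL arrays overlapped with those of ΔSAP and of control. P4hb was lower in mutB1 than in FL (-0.17 ± 0.03, adjusted p = 0.00352). This call was lost without array mutB1 1, 2 or 3 or FL 1 or 3 (adjusted p of 0.0124 to 0.0163), and its adjusted p ran from 0.000114 to 0.127 over all alternatives. ΔSAP exceeded mutB1 by 0.20 ± 0.03 (adjusted p = 0.00155), a call lost after centring each array on its median (0.18, adjusted p = 0.0285) and in a fit to the 2 lines compared (0.20, adjusted p = 0.0223).

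**Figure D3:**
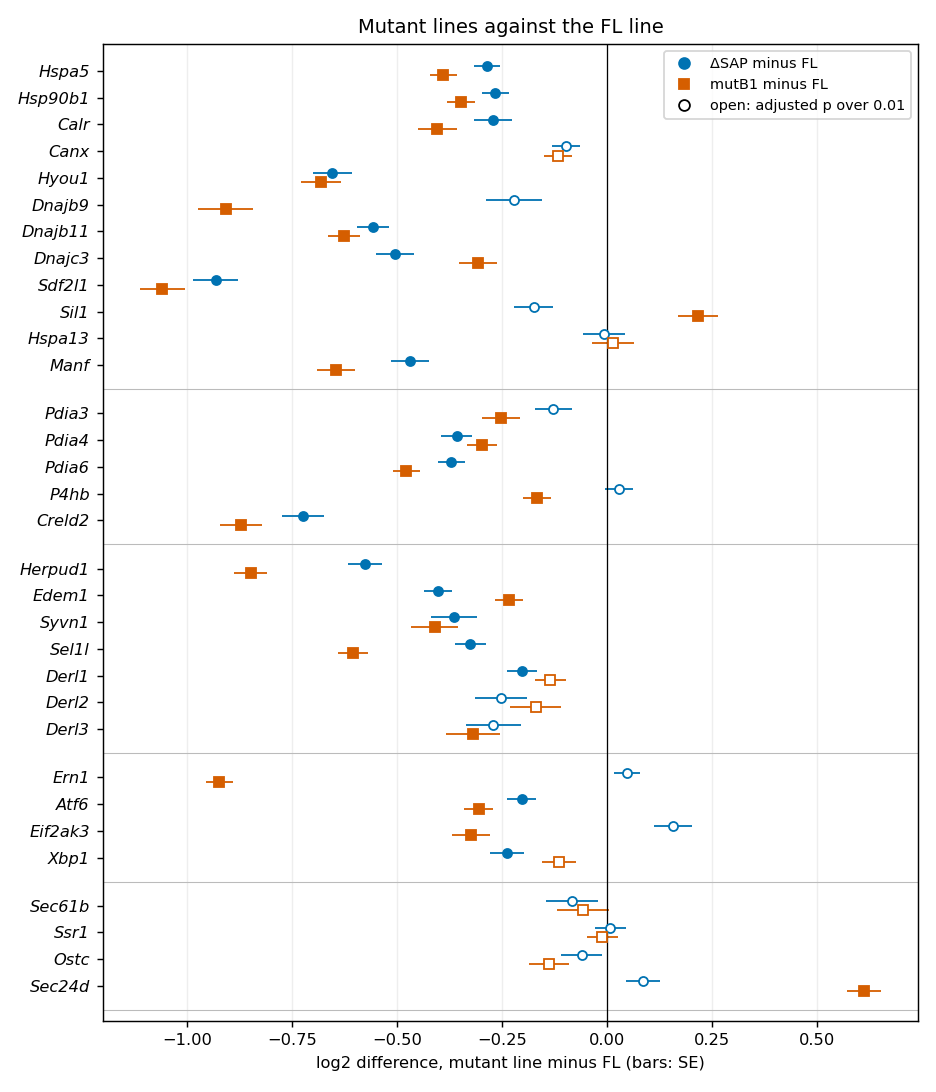
Log2 difference from FL with its SE for ΔSAP (circles) and mutB1 (squares) over the 32 members, separated by role from chaperones at the top to translocation, glycosylation and export at the bottom. Filled symbols passed limma's adjusted p of 0.01. Most filled symbols lie left of 0. The mutB1 symbols stand farthest from those of ΔSAP at Dnajb9, Ern1 and Eif2ak3, to the left, and at Sil1 and Sec24d, to the right.

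Among the 7 degradation genes, 5 were lower in ΔSAP and 5 in mutB1 than in FL, 0 were higher in either, and 4 were higher in FL than in control. All 3 FL arrays lay above every array of ΔSAP and of mutB1 for each of the 7. How many of all probe sets separate in this way was not counted. Herpud1, a membrane protein that assembles the degradation complex, had values of 10.79, 10.78 and 10.84 in ΔSAP, 10.61, 10.49 and 10.50 in mutB1, 11.40, 11.36 and 11.39 in FL, and 10.49, 10.48 and 10.49 in control. FL was highest and ΔSAP next, each apart from the rest, and the mutB1 and control arrays overlapped. Herpud1 was 1.49-fold lower in ΔSAP than in FL (-0.58 ± 0.04, adjusted p = 8.19e-06) and 1.8-fold lower in mutB1 (-0.85 ± 0.04, adjusted p = 1.72e-07). ΔSAP exceeded mutB1 by 0.27 ± 0.04 (adjusted p = 0.000649), a call lost in a fit to the 2 lines compared (0.27, adjusted p = 0.0175).

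Sel1l, the adaptor of the ubiquitin ligase Syvn1, had values of 10.76, 10.79 and 10.82 in ΔSAP, 10.48, 10.49 and 10.56 in mutB1, 11.12, 11.13 and 11.10 in FL, and 11.13, 11.08 and 11.11 in control. FL and control overlapped, ΔSAP lay below both and mutB1 was lowest. Sel1l was lower than in FL in ΔSAP (-0.32 ± 0.04, adjusted p = 0.000157) and in mutB1 (-0.60 ± 0.04, adjusted p = 8.7e-07), and FL and control had an adjusted p of 0.897. Syvn1 (HRD1), the ligase itself, differed from FL by -0.36 ± 0.06 (adjusted p = 0.00117) in ΔSAP and -0.41 ± 0.06 (adjusted p = 0.000311) in mutB1. The call in ΔSAP was lost in a fit to the 2 lines compared (-0.36, adjusted p = 0.0136). FL exceeded control at Syvn1 by 0.47 ± 0.06 (adjusted p = 0.000103).

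Edem1, a lectin that passes misfolded glycoproteins to degradation, stood at 11.06 ± 0.02 in ΔSAP, 11.23 ± 0.02 in mutB1, 11.47 ± 0.03 in FL and 10.91 ± 0.02 in control (SD, n = 3). Its differences from FL were -0.40 ± 0.03 (adjusted p = 2.31e-05) in ΔSAP and -0.23 ± 0.03 (adjusted p = 0.000398) in mutB1. The call in mutB1 was lost after centring each array on its median (-0.19, adjusted p = 0.0111). As with Dnajc3, ΔSAP was lower than mutB1 (-0.17 ± 0.03, adjusted p = 0.00393). That call was lost without array ΔSAP 1 or 3 or mutB1 2 or 3 (adjusted p of 0.0146 to 0.0164), and its adjusted p ran from 0.000256 to 0.0348 over all alternatives. The derlins form part of the channel out of the ER. Derl1 was lower in ΔSAP than in FL (-0.20 ± 0.04, adjusted p = 0.00301). This call was lost without array ΔSAP 2 or FL 1 or 3 (adjusted p of 0.0128 to 0.0145), and its adjusted p ran from 0.000168 to 0.0314 over all alternatives. Derl2 passed in none of the comparisons, with means of 9.55 ± 0.12 in ΔSAP, 9.63 ± 0.08 in mutB1, 9.80 ± 0.03 in FL and 9.58 ± 0.01 in control. Derl3, near the background, was lower in mutB1 than in FL (-0.32 ± 0.06, adjusted p = 0.00419). This call was lost without array mutB1 1, 2 or 3 or FL 1, 2 or 3 (adjusted p of 0.0121 to 0.0177), and its adjusted p ran from 0.00161 to 0.0177 over all alternatives.

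Of the 4 sensor and signalling genes, 2 were lower in ΔSAP than in FL and 3 in mutB1, and 0 were higher in either. Between the mutant lines, 2 were higher in ΔSAP, Ern1 and Eif2ak3. Ern1 (IRE1), the kinase and nuclease that splices Xbp1 mRNA, had values of 10.36, 10.38 and 10.38 in ΔSAP, 9.43, 9.39 and 9.39 in mutB1, 10.30, 10.36 and 10.32 in FL, and 9.84, 9.86 and 9.84 in control. No lines overlapped: ΔSAP and FL lay close together at the top, control lay below them and mutB1 was lowest. Ern1 was 1.9-fold lower in mutB1 than in FL (-0.92 ± 0.03, adjusted p = 1.52e-08) and lower than in control (-0.44 ± 0.03, adjusted p = 3.6e-06). ΔSAP did not pass against FL (adjusted p = 0.375) and was 1.96-fold higher than mutB1 (0.97 ± 0.03, adjusted p = 8.7e-09), the largest difference between the mutant lines among the 32 genes.

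Eif2ak3 (PERK), the kinase that slows translation initiation, had values of 9.20, 9.24 and 9.18 in ΔSAP, 8.68, 8.77 and 8.72 in mutB1, 8.99, 9.03 and 9.12 in FL, and 8.87, 8.92 and 8.94 in control. ΔSAP was highest and mutB1 lowest, and no lines overlapped. Eif2ak3 was lower in mutB1 than in FL (-0.32 ± 0.05, adjusted p = 0.000355), whereas ΔSAP exceeded mutB1 by 0.48 ± 0.05 (adjusted p = 2.73e-05) and control by 0.30 ± 0.05 (adjusted p = 0.000787). Atf6, the sensor that is cut in the Golgi to release a transcription factor, was lower than FL in ΔSAP (-0.20 ± 0.03, adjusted p = 0.0022) and in mutB1 (-0.31 ± 0.03, adjusted p = 8.71e-05). In ΔSAP this call was lost without array ΔSAP 3 (adjusted p = 0.0107), and its adjusted p ran from 0.000164 to 0.0292 over all alternatives.

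Xbp1, the transcription factor made from the mRNA that Ern1 splices, had values of 11.73, 11.79 and 11.74 in ΔSAP, 11.92, 11.82 and 11.89 in mutB1, 11.96, 11.97 and 12.04 in FL, and 11.96, 12.02 and 11.96 in control. ΔSAP was lowest, mutB1 lay above it, and FL and control overlapped at the top. Xbp1 was lower in ΔSAP than in FL (-0.24 ± 0.04, adjusted p = 0.00248). This call was lost without array ΔSAP 1 or 3 or FL 3 (adjusted p of 0.011 to 0.0118), and its adjusted p ran from 0.000245 to 0.0241 over all alternatives. ΔSAP was also lower than control (-0.23 ± 0.04, adjusted p = 0.0025), a call lost without array ΔSAP 1 or 3 or control 2 (adjusted p of 0.0108 to 0.0119), with an adjusted p that ran from 0.00026 to 0.0174 over all alternatives. In mutB1 it did not pass against FL (-0.11 ± 0.04, adjusted p = 0.0715). The value is 1 summary over the gene's probes and gives no separate reading of the spliced mRNA.

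**Figure D4:**
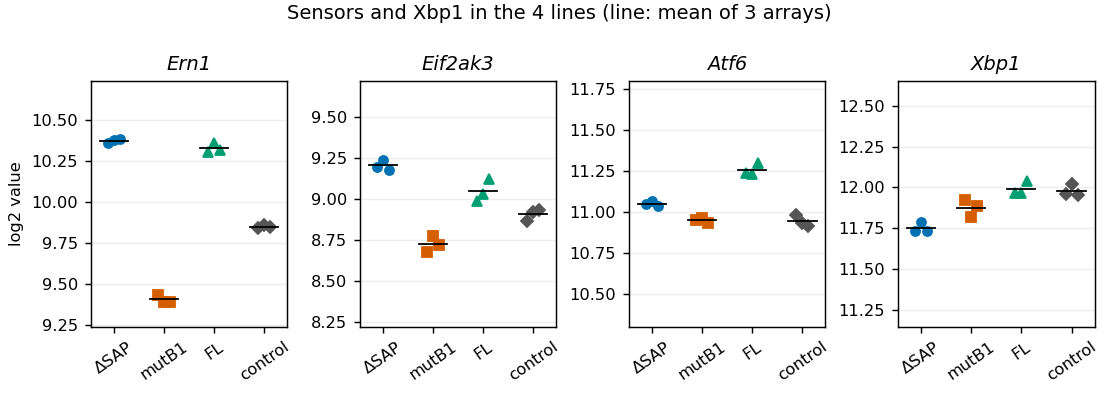
Log2 values (y axis, 1.5 units high in every panel) of Ern1, Eif2ak3, Atf6 and Xbp1 in each of the 3 arrays of ΔSAP, mutB1, FL and control, with a bar at the mean. The mutB1 arrays are lowest for Ern1 and Eif2ak3, FL is highest for Atf6, and ΔSAP is lowest for Xbp1.

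The genes of translocation, glycosylation and export mostly did not pass. Ssr1, a translocon-associated protein, and Ostc, a subunit of the oligosaccharyltransferase, passed in none of the comparisons, with ranges over all 12 arrays of 11.74 to 11.90 for Ssr1 and 11.33 to 11.58 for Ostc. Sec61b, a subunit of the translocon channel, exceeded control in FL by 0.27 ± 0.06 (adjusted p = 0.00833). This call was lost without array ΔSAP 1 or 3, mutB1 1 or 3, FL 2 or 3 or control 1, 2 or 3 (adjusted p of 0.0104 to 0.0327), and its adjusted p ran from 0.00348 to 0.0521 over all alternatives. Its other 2 probe sets gave 0.39 and 0.51 in that comparison (adjusted p = 0.0477 and 0.133).

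Sec24d, a cargo adaptor of the COPII vesicles that leave the ER, ran the other way from most members. Its values were 10.05, 10.19 and 10.10 in ΔSAP, 10.64, 10.65 and 10.63 in mutB1, 10.00, 10.01 and 10.06 in FL, and 10.55, 10.52 and 10.54 in control. The ΔSAP and FL arrays were low and overlapped, control lay well above them and mutB1 was highest, apart from control. Sec24d was 1.53-fold higher in mutB1 than in FL (0.61 ± 0.04, adjusted p = 1.82e-06), and lower in ΔSAP than in mutB1 (-0.53 ± 0.04, adjusted p = 6.66e-06). It was the 1 member that fell in FL against control, by 0.51 ± 0.04 (adjusted p = 5.31e-06).

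Between the mutant lines, 6 members were higher in ΔSAP than in mutB1 and 4 lower, where 7.07% of all probe sets were higher and 8% lower. The shares among probe sets with a mean of at least 9 are not given for this comparison. Against FL, such shares were higher than those over all probe sets, so these counts may lie near them. The 6 were Ern1, Dnajb9, Eif2ak3, Sel1l (0.28), Herpud1 and P4hb. The 4 lower ones were Sec24d, Sil1, Dnajc3 and Edem1. For Hspa5, Hsp90b1, Calr, Hyou1, Dnajb11, Sdf2l1, Manf and Creld2, whose levels were below FL in both mutant lines, the step between ΔSAP and mutB1 did not pass, with adjusted p of 0.0159 (Manf, 0.18) to 0.734 (Hyou1). A p above the threshold does not show that the mutant lines were alike at these genes.

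The 11 members with an ERSE or ERSE-II match were set beside the 14 with a promoter entry and no match. Of the 11, 9 were lower in ΔSAP and 10 in mutB1 than in FL, with medians of -0.36 and -0.40. The 10 include Derl3, near the background, whose call was lost under some alternatives. Of the 14, 5 were lower in ΔSAP, and 9 were lower and 1 higher in mutB1, with medians of -0.17 and -0.24. Of the 7 without a promoter entry, 4 were lower in ΔSAP, and 3 were lower and 1 higher in mutB1. Their medians were -0.20 and -0.14. Over all probe sets 5.73% were lower in ΔSAP and 8.82% in mutB1. Whether a match goes with a fall was not tested. Canx was the member with a match that passed in neither comparison. Sdf2l1, which had the largest falls, had no match in this window.

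Other genes of the pathway, not among the members, were counted in further lists. Like the members, these lists were chosen with earlier results of these data known, so they are not independent of them. Each gene named from them is given in the comparison with FL where its difference was larger. The other mutant line may have moved as well. The shares lower than FL are to be read against 5.73% (ΔSAP) and 8.82% (mutB1) of all probe sets, and 13.6% and 18.1% of those with a mean of at least 9. Of 21 other ER folding and disulfide genes, 5 were lower and 0 higher in ΔSAP than in FL, and 5 were lower and 3 higher in mutB1, so that 23.8% were lower in each. The oxidases that recharge the isomerases, Ero1b (-0.89 ± 0.06, adjusted p = 3.07e-06) and Ero1a (-0.49 ± 0.04, adjusted p = 1.25e-05), were lower in mutB1 than in FL, while Fkbp7, an ER prolyl isomerase, was higher by 0.96 ± 0.05 (adjusted p = 5.37e-07). Line means in ΔSAP and FL were 7.80 and 8.47 for Ero1b, 11.25 and 11.55 for Ero1a, and 9.34 and 9.26 for Fkbp7. Of 18 other degradation genes, 4 (22.2%) were lower and 1 higher in each mutant line. The ligase Rnf5 was higher in ΔSAP than in FL by 0.44 ± 0.06 (adjusted p = 0.000826). Its mean was 10.69 in ΔSAP, 10.57 in mutB1 and 10.25 in FL. In mutB1, the ubiquitin-conjugating enzyme Ube2g2 was lower (-0.34 ± 0.04, adjusted p = 0.00011) and Nploc4, a cofactor of the extracting ATPase (-0.32 ± 0.03, adjusted p = 5.01e-05).

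Among 18 other sensor and response genes, 5 (27.8%) were lower and 3 higher in ΔSAP than in FL, and 7 (38.9%) were lower and 3 higher in mutB1. Ddit3 (CHOP), a transcription factor tied to cell death under stress, averaged 8.99 in ΔSAP, 8.58 in mutB1, 10.14 in FL and 8.36 in control. Its fall in mutB1 against FL was -1.56 ± 0.04 (adjusted p = 3e-09). Ppp1r15a (GADD34), which restores translation, differed by -1.25 ± 0.08 (adjusted p = 9.42e-07) and the stress factor Atf3 by -1.02 ± 0.08 (adjusted p = 3.99e-06) in that comparison. In ΔSAP against FL these 3 genes differed by -1.15, -0.72 and -0.62 (adjusted p = 1.2e-07, 0.000113 and 0.000266).

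Of 25 other translocon and glycosylation genes, 5 (20%) were lower and 1 higher in ΔSAP, and 4 (16%) lower and 2 higher in mutB1, than in FL. The share in mutB1 lay under that of probe sets with a mean of at least 9. The signal peptidase subunit Sec11c was lower in mutB1 (-0.89 ± 0.04, adjusted p = 1.32e-07) and the oligosaccharyltransferase subunit Tusc3 was higher by 0.43 ± 0.05 (adjusted p = 8.22e-05). Rpn1, another subunit of that enzyme, was lower in ΔSAP (-0.42 ± 0.05, adjusted p = 0.000234). It averaged 10.87 in ΔSAP, 10.91 in mutB1 and 11.30 in FL. Of 19 other ER export genes, 3 (15.8%) were lower and 1 higher in ΔSAP, and 7 (36.8%) were lower and 0 higher in mutB1. The cargo receptor Lman1 (-0.44 ± 0.03, adjusted p = 1.33e-05) and the coat subunit Sec13 (-0.40 ± 0.04, adjusted p = 4.75e-05) were lower in ΔSAP than in FL, and the coat subunit Sec23a was higher by 0.26 ± 0.04 (adjusted p = 0.00151).

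Chaperones outside the ER moved in the same direction as the members. Of 22 cytosolic and mitochondrial chaperones, 16 were lower and 0 higher in ΔSAP than in FL, 18 were lower and 0 higher in mutB1 than in FL, and 19 were higher and 0 lower in FL than in control. At an unadjusted p under 0.05, 1 was higher in ΔSAP and 0 in mutB1 than in FL. That cut again has no share of all probe sets beside it. The medians of these chaperones in ΔSAP against FL, mutB1 against FL and FL against control were -0.28, -0.33 and 0.42. The small heat shock protein Hspb1 was lower in ΔSAP than in FL (-1.47 ± 0.10, adjusted p = 6.01e-06). Hspb1 was about as low in mutB1, with means of 11.20 in ΔSAP, 11.25 in mutB1 and 12.66 in FL. In mutB1 the co-chaperone Dnajb4 was lower than in FL (-0.94 ± 0.05, adjusted p = 6.06e-07) and the exchange factor Hsph1 (-0.73 ± 0.04, adjusted p = 2.09e-07). In ΔSAP Dnajb4 averaged 10.29 and Hsph1 11.40, beside 10.72 and 11.87 in FL. An ERSE or ERSE-II match was held by 0 of the 20 of these genes with a promoter entry. In the other ER lists it was held by 1 of 20 folding, 0 of 14 degradation, 0 of 17 sensor and response, 1 of 21 translocon and 0 of 17 export genes.

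**Figure D5:**
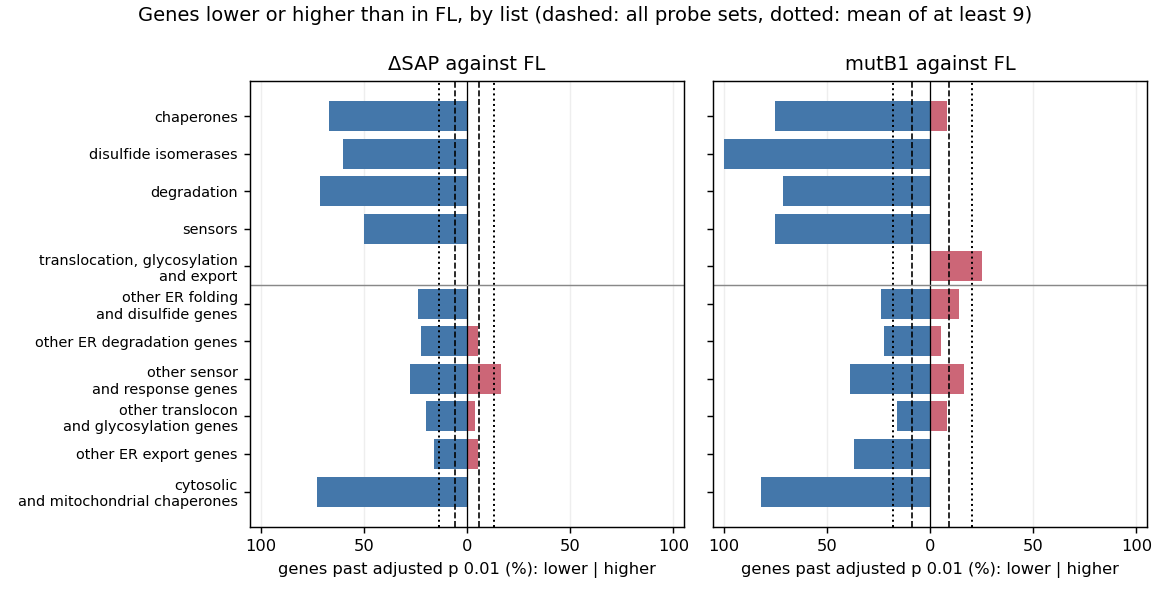
Share of each list, in percent of its measured genes, that was lower (bars to the left) or higher (bars to the right) than FL at limma's adjusted p of 0.01, for ΔSAP (left panel) and mutB1 (right panel). Member roles are above the grey line and the other lists below it, dashed lines mark the shares over all probe sets and dotted lines those over probe sets with a mean of at least 9. Of the other ER lists, the translocon list lies inside the left dotted line in mutB1 (16%, against 18.1%). In mutB1 the folding (23.8%) and degradation (22.2%) lists lie a little beyond that line. The export list is close to the left dotted line in ΔSAP (15.8%, against 13.6%). The cytosolic and mitochondrial chaperones reach 72.7% in ΔSAP and 81.8% in mutB1.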

How the data were processed

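The deposited table holds 1 log2 value for each probe set and array. The authors obtained it by RMA, which corrects background, equalizes array distributions and summarizes probes, in the affy package of Bioconductor 2.4, per the series design text; R 2.10.0 is named per the submitters' processing notes. No genome build, scan date or batch is stated in the labels. RMA gives no detection calls, and precision is limited by the 3 arrays per line.

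Of 34760 probe sets, 21640 had 1 gene symbol, 1321 several and 11799 none. Symbols were updated through Entrez identifiers (21553 matched, 87 kept).

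The 4 line means were fitted to all 12 arrays with limma 3.58.1 in R 4.3.3 (lmFit, eBayes, 6 contrasts and an F test), and p-values were adjusted by Benjamini and Hochberg's method across the whole table. Alternatives were a replicate block, median centring, quantile normalization, filters on the mean at 4 and 6, trended robust eBayes, array weights, a fit to the 2 lines compared, the mean over a gene's probe sets, and each array left out. The method was tested on simulated data. Members and lists were chosen with earlier results of these data known. Every member may be named; from each other list the 3 genes with the largest difference from FL among those passing are named. Same-numbered arrays of different lines deviated from their line means with correlations of -0.20 to 0.17, so replicate numbers were not used as pairs.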

Additional observations from a re-analysis of the deposited data

How the results depend on the processing

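Results were recomputed under 9 other settings and with each of the 12 arrays left out. Of 102 calls of a member in a comparison, 71 passed under every one of them and 0 changed direction; 19 were lost without 1 array. Of 70 differences that passed nowhere, 17 changed sign. A fit to the 2 lines compared, with 6 arrays, ended 28 calls, median centring 21 and the replicate block 10. With the block, members lower against FL numbered 17 in ΔSAP and 21 in mutB1, and 1 was higher in mutB1. That count was also 1 after quantile normalization and in the fit to 2 lines, and 1 to 2 without 1 array (Sil1 was the call lost). Members lower in ΔSAP than in mutB1 numbered 2 after median centring and 2 in the fit to 2 lines, and 2 to 4 without 1 array. Against control, ΔSAP had 9 members higher after median centring and 8 in the fit to 2 lines, and 10 to 13 without 1 array. ΔSAP had 2 members lower than control in the fit to 2 lines, and 3 to 5 without 1 array; mutB1 had 3 higher in the fit to 2 lines, and 4 to 6 without 1 array. Members lower in ΔSAP than in FL ranged from 12 to 20, and in mutB1 from 18 to 24, under the other 9 settings. Deviations from the line means were no more alike between same-numbered arrays than between others (median correlation of -0.016 and -0.0074). This cannot show whether same-numbered arrays were handled together. Where the cause of a lost call is not the smaller number of arrays, the cause was not tested.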
